A study of Saccharomyces cerevisiae with 4 samples.

Results

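The genes described are those of Saccharomyces cerevisiae, budding yeast, whose standard name is RPL, a number and an optional A or B, and which encode the proteins of the large subunit of the cytosolic ribosome. They were taken by name alone, with the acidic P stalk genes (RPP) left out. RefSeq assembly R64 lists 76 such genes, all 76 protein-coding. Of these, 74 had a row in the deposited table of 6207 reading frames, 2 of them (RPL22B and RPL41B) under an older systematic name. A value on all 4 arrays was held by 73 members, against 4788 reading frames in all, and counts of members are over those 73. RPL31B had values of 0.33 and 0.90 on arrays 1 and 4 alone and was not tested, and RPL29 and RPL36B were not analysed here. All 73 entered the fit, since no filter on signal was added.

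Cells of an slt2 mutant, which carries a mutation in the gene for the last kinase of the cell wall integrity pathway, were grown in rich medium at 24 °C. One part of a culture was exposed to zymolyase 100T, a preparation that digests cell wall glucan, at 5 units per ml and collected at 3 h, and the other part was left without the enzyme. Each of 4 arrays took treated and untreated RNA in different dyes, from 2 cultures in all, so that both groups carried the slt2 mutation and no wild type group was included. The treated RNA was in Cy3 for arrays 1 and 3 and in Cy5 for arrays 2 and 4. One source label of array 3 calls the treated RNA wild type, against its title, so results are also given without that array. SLT2 had a value on 0 of the 4 arrays and could not check the labels.

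The values are log ratios between the channels of an array, taken as log2, with the sign of arrays 1 and 3 turned. Before turning, arrays of opposite dye orientation correlated below 0 over all frames (r from -0.60 to -0.30). The numerator is not stated. HSP12, a small heat shock protein gene with -2.50, -3.30, -2.80 and -1.91 on arrays 1 to 4, fixes the negative side, and TIP1, a cell wall mannoprotein gene with 1.44, 0.79, 1.65 and 0.79, the positive one. If the deposited ratio is Cy3 over Cy5, a positive value means lower RNA in zymolyase-treated cells than in untreated cells. If it is Cy5 over Cy3, it means higher RNA in treated cells. Neither labels nor values settle this, and the RPL genes are described by side only. In RNA from whole cultures, a change in the make-up of the cells and a change in RNA per cell cannot be told apart.

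The large ribosomal subunit carries the peptidyl transferase centre, where amino acids are joined, and the tunnel through which the new chain leaves. Its rRNA does the chemistry, while the proteins shape the rRNA, form the landing sites of factors at the tunnel exit and hold contacts with the small subunit. In yeast most of these proteins are encoded by a duplicated gene pair with very similar or identical products. Their transcription depends on Rap1, Fhl1 and Ifh1 under TOR and protein kinase A signalling, and a joint fall of ribosomal protein mRNAs together with a rise of stress genes is a well known part of the yeast stress response.

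The RPL genes lay almost all on the side opposite to HSP12, by a small and similar amount. Of 73 members, 69 (94.5%) had a positive mean over the arrays, where 57.5% of all genes tested had one. The median of the members' means was 0.30, a ratio of 1.23-fold, against 0.06 over all genes tested. On all 4 arrays 54 members (74.0%) were positive, against 18.5% of all genes tested, and 0 members were negative on all 4. Taken one at a time, 0 members passed the test (limma, Benjamini-Hochberg adjusted p under 0.05, arrays averaged by culture and the larger p of the pairings of arrays that give each culture a dye swap), where 4.55% of all genes tested passed, 208 of those 218 on the HSP12 side and 0.209% of all genes on the opposite one. At an unadjusted p under 0.05 there were 3 of 73 members, RPL19B, RPL39 and RPL38, all on the opposite side, beside 11.5% of all genes tested on either side and 2.97% on the opposite one. The smallest adjusted p of a member was 0.301 (limma). In this fit every member had the same standard error, 0.244. The p of a member thus followed the size of its mean alone and not its own spread over the arrays. By the labels each culture had both dye orientations, which leaves 2 pairings of arrays, and which one holds is not labelled. With arrays 1 and 4 taken as one culture and 2 and 3 as the other, 37 members passed, all on the opposite side, beside 29.6% of all genes tested on either side and 15.0% on the opposite one.

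The shift was present on every array and differed in size between them. The median over members was 0.20 on array 1, 0.22 on array 2, 0.35 on array 3 and 0.45 on array 4 (mean 0.31 ± 0.12, SD, n = 4 arrays). The medians over all genes tested were 0.02, 0.05, 0.10 and 0.03 on the same arrays. Of the 73 members, 62 were positive on array 1, 72 on array 2, 65 on array 3 and 69 on array 4, against 53.0%, 56.2%, 59.3% and 52.2% of all genes tested. Array 2 held the members most tightly, with an SD of 0.15 among them, and array 4 most widely, with 0.35. Over all genes tested the SD was 0.36, 0.46, 0.65 and 0.61 on arrays 1 to 4, so arrays 3 and 4 were wider for genes in general. Without array 3, 72 members had a positive mean and the median was 0.28.

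**Figure D1:**
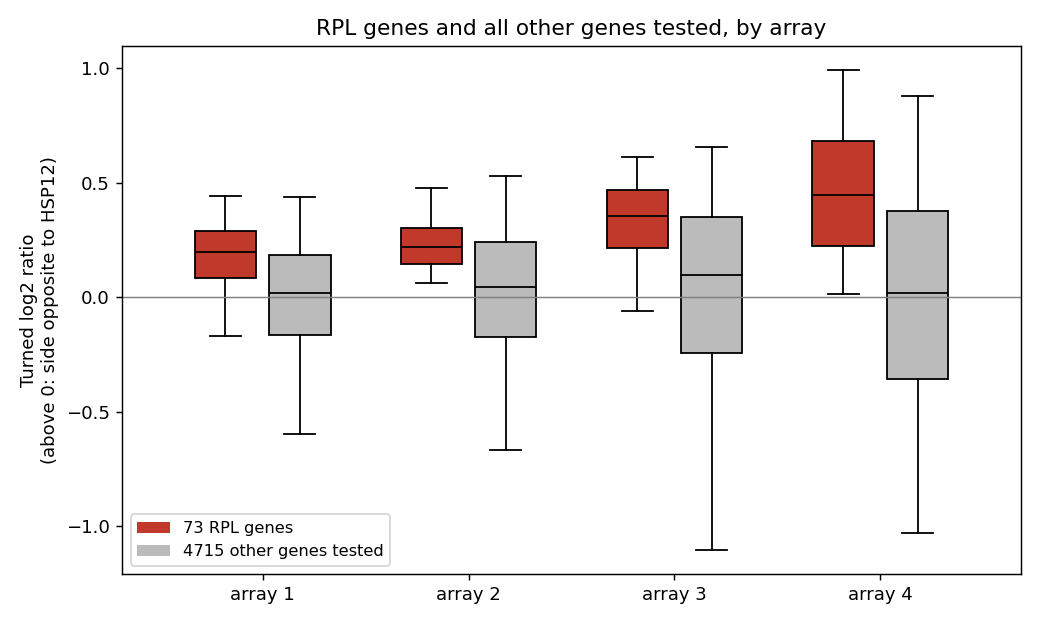
Turned log2 ratios of 73 RPL genes (red) and of the 4715 other genes tested (grey) on each array, with values above 0 on the side opposite to HSP12. Boxes span the quartiles with the median as a line and whiskers reach from the 5th to the 95th percentile. The RPL medians run from 0.20 to 0.45 and lie above those of the other genes on each of the 4 arrays.

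The largest means belonged to RPL19B, RPL39 and RPL38, and all 3 were highest on array 4. RPL19B (YBL027W), whose protein reaches over to the small subunit as a bridge, had 0.30, 0.48, 0.55 and 0.83 on arrays 1 to 4. Its mean of 0.54 ± 0.22 (SD, n = 4) was the largest of the 73 (adjusted p = 0.301, limma). The other copy, RPL19A (YBR084C-A), had 0.19, 0.26, 0.47 and 0.99, with a mean of 0.48 ± 0.36. All 8 values of both copies were positive, and both were highest on array 4.

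RPL39 (YJL189W) encodes one of the smallest ribosomal proteins, which lines the exit tunnel. It had 0.01, 0.39, 0.43 and 1.30 on arrays 1 to 4 (0.53 ± 0.54, adjusted p = 0.315). RPL38 (YLR325C), a small protein gene that cells can do without, had -0.02, 0.82, 0.20 and 1.03 (0.51 ± 0.50, adjusted p = 0.367). Both genes lay near 0 on array 1 and highest on array 4, so that their means rest on part of the arrays. RPL42A, RPL8B, RPL28, RPL9A and RPL35A completed the 8 largest means with a positive value on all 4 arrays, from 0.44 to 0.47, and each of them was also highest on array 4.

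Only 4 of the 73 members had a mean on the HSP12 side, all of them close to 0 or carried by 1 array. RPL15A (YLR029C) had 0.31, 0.09, -0.06 and -0.73 on arrays 1 to 4, and without array 4 its mean was 0.11 in place of -0.10. Its copy RPL15B (YMR121C) had -0.06, 0.32, -0.99 and 0.31, and without array 3 its mean was 0.19 in place of -0.10. The lowest value of each copy thus fell on a different array. RPL43B (YJR094W-A), with -0.17, 0.12, -0.24 and 0.21, and RPL41B, with -0.29, 0.14, -0.15 and 0.23, were negative on arrays 1 and 3 and positive on arrays 2 and 4. Their means were -0.02 each, and both turned positive without array 1 or without array 3 (0.03 to 0.07).

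**Figure D2:**
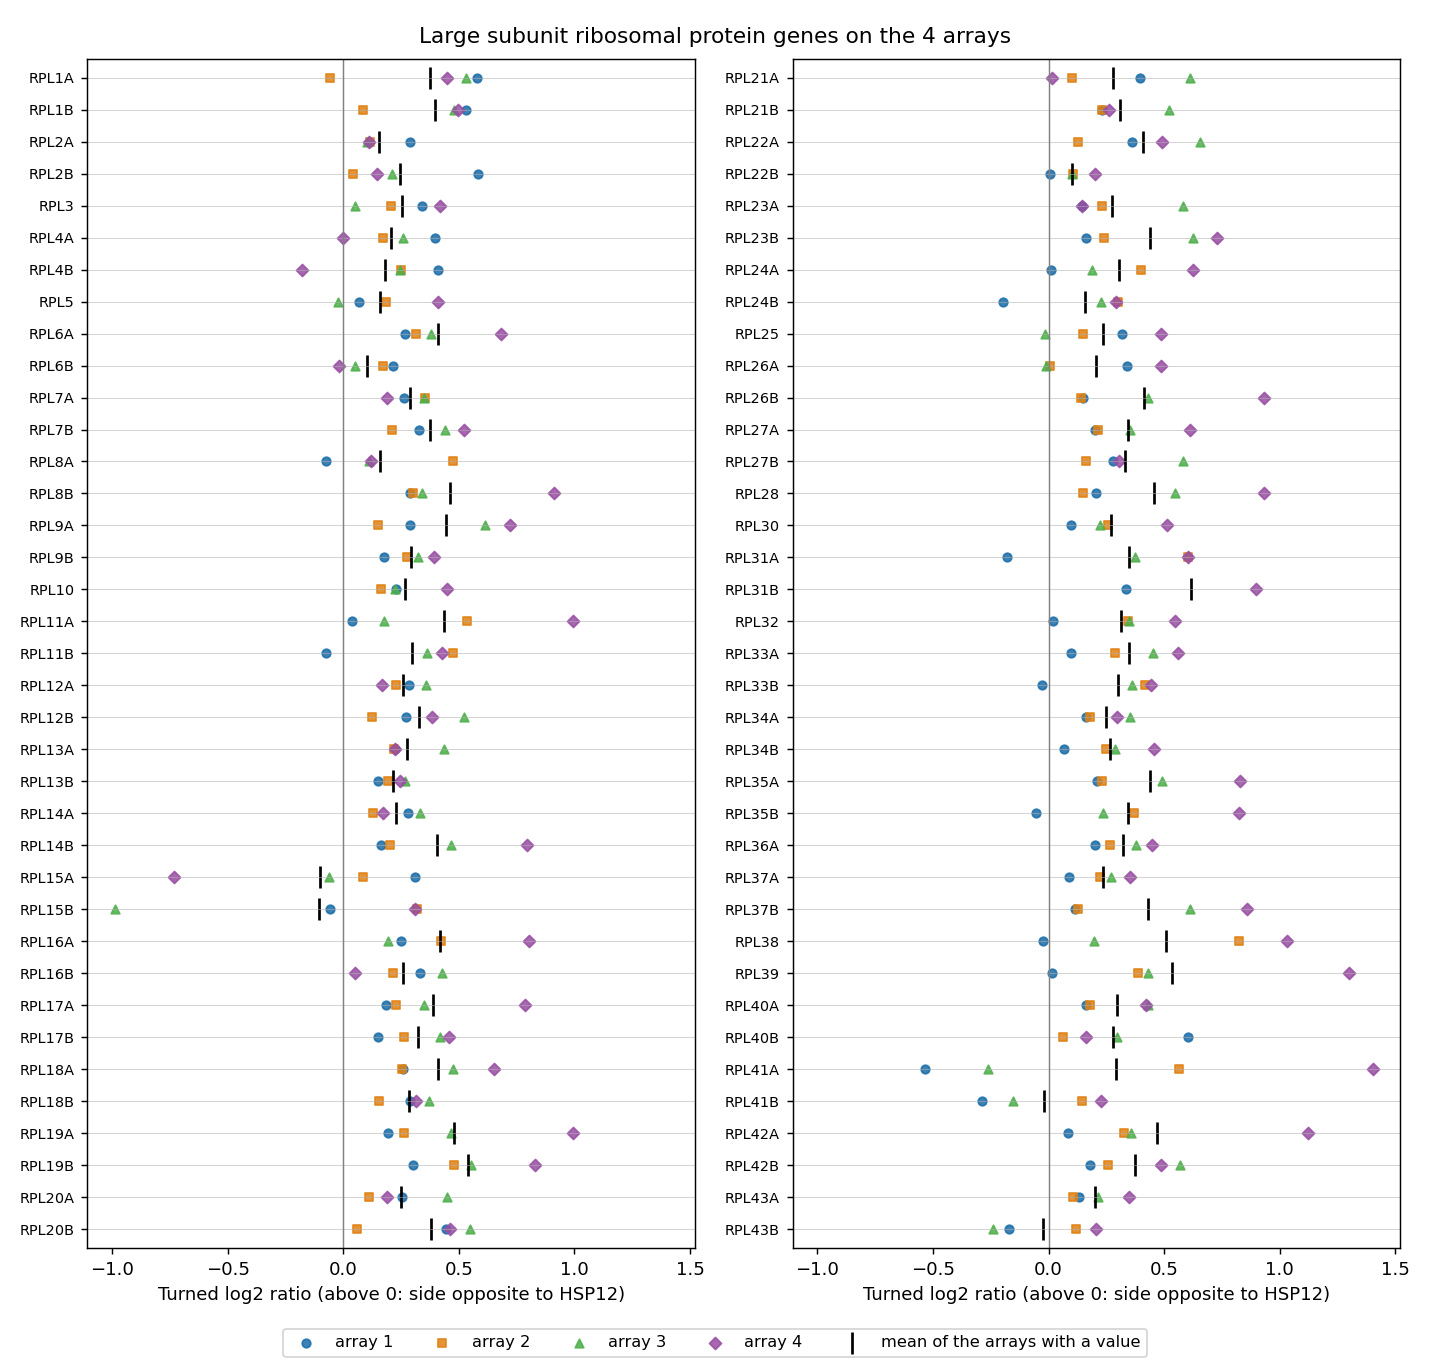
Turned log2 ratios of the 74 RPL genes with a value, ordered by protein number from the top of the left panel to the bottom of the right one. Coloured symbols are single arrays and the black bar is the mean of the arrays with a value (RPL31B has 2). Most symbols lie above 0, array 4 reaches furthest to the right, and RPL41A spans from -0.53 to 1.40.

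Grouped by place in the subunit, every set of proteins had a positive median. In each set 0 members passed the test (limma), beside 4.55% of all genes tested on either side and 0.209% on the opposite one. At these shares a count of 0 in sets this small tells nothing about the sets. The proteins of the exit tunnel and its rim, where chaperones and the signal recognition particle dock, had a median of 0.34 over 11 measured genes. All 11 had positive means, from 0.18 for RPL4B to 0.53 for RPL39, but only 5 of the 11 (45.5%) were positive on all 4 arrays, against 74.0% of all members. RPL25, the main docking protein of that rim, had 0.32, 0.15, -0.02 and 0.48 on arrays 1 to 4. Proteins at the contact with the small subunit ranged most widely, with 7 of 9 means positive, 5 of 9 positive on all 4 arrays and a median of 0.27, from -0.02 for RPL43B to 0.54 for RPL19B.

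Around the peptidyl transferase centre the means were lower, with a median of 0.25 against 0.30 for all members. They lay closer together than in the tunnel and contact sets. On array 1 the median of this set was higher than that of all members, 0.31 against 0.20. RPL3, RPL10, RPL2A and RPL2B had means of 0.25, 0.27, 0.15 and 0.25, and all 16 of their values were positive. RPL10 (YLR075W), which joins the subunit as one of its last proteins, had 0.23, 0.16, 0.23 and 0.45. RPL5, which with RPL11 holds the 5S rRNA, had 0.07, 0.19, -0.02 and 0.41 (mean 0.16), the lowest mean of the single-copy genes. RPL11A and RPL11B had means of 0.44 and 0.30.

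The stalk proteins were similar to the family as a whole in their means, but not array by array. Their medians were 0.41, 0.11, 0.50 and 0.42 on arrays 1 to 4, against 0.20, 0.22, 0.35 and 0.45 for all members. RPL1A and RPL1B, for the mobile stalk near the tRNA exit, had means of 0.38 and 0.40, and RPL12A and RPL12B, at the base of the P stalk, 0.26 and 0.33. Both genes that make their protein as a fusion to ubiquitin, RPL40A and RPL40B, had 0.30 and 0.28. The set of proteins known to be dispensable for growth had 12 of 13 measured means positive, with a median of 0.31 against 0.30 for all members, and 7 of 13 were positive on all 4 arrays. Differences between these sets were not tested.

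The 9 measured single-copy genes and the 64 measured duplicated genes had medians of 0.27 and 0.30. Of the single-copy genes all 9 had positive means, and 6 were positive on all 4 arrays. RPL28, known for resistance to cycloheximide, had 0.21, 0.15, 0.55 and 0.93 (mean 0.46), and came after RPL38 and RPL39 as the highest of the single-copy genes. RPL30, whose protein binds its own transcript and blocks its splicing, had 0.10, 0.26, 0.22 and 0.51 (mean 0.27). RPL32, with 0.02, 0.35, 0.35 and 0.55, had a mean of 0.31. The remaining 3, RPL3, RPL10 and RPL25, lay between 0.23 and 0.27.

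The 2 copies of a pair were set against each other within each array, which removes any shift common to the array. Of 33 pairs, 31 had both copies on all 4 arrays. The mean difference, A minus B, was under 0.1 in size for 16 of the 31 and had a median size of 0.10. It exceeded its own SD over the arrays in 3 pairs. In 3 of 31 pairs the difference had the same sign on all 4 arrays, and these reach the smallest p, 0.13, that an exact two-sided sign-flip permutation test on 4 arrays allows. The test takes the 4 arrays as separate although they come from 2 cultures. No pair could pass the threshold by it, and the smallest p adjusted over the 31 pairs was 0.775 (exact permutation test). With 1 array left out, 5 to 12 pairs had the same sign on the 3 others, 12 of them without array 2. Random signs match on all 4 arrays with a probability of 0.13 for each pair, so 3 of 31 pairs is no more than random signs would give. They match more often on 3 arrays than on 4. What the spots hold is not stated, so signal of near-identical copies cannot be told apart.

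In 2 of these 3 pairs the A copy was higher on each array. RPL6A (YML073C) had 0.27, 0.31, 0.38 and 0.68 on arrays 1 to 4, against 0.21, 0.17, 0.05 and -0.02 for RPL6B (YLR448W). The difference was 0.31 ± 0.29 (SD, n = 4) and ranged from 0.05 to 0.70 between arrays. RPL22A (YLR061W) had 0.36, 0.13, 0.65 and 0.49, against 0.00, 0.11, 0.10 and 0.20 for RPL22B, a difference of 0.30 ± 0.22. RPL22B is known as the minor copy, whose splicing is held back by Rpl22 protein itself. On array 2 these copies were only 0.02 apart. In the third pair, RPL23, the B copy was higher on each array. The differences, A minus B, were -0.02, -0.01, -0.04 and -0.58 on arrays 1 to 4, so that array 4 made up nearly all of the mean of -0.16 ± 0.28.

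Other large differences between copies changed sign between arrays. RPL41A (YDL184C) and RPL41B encode the shortest protein of the ribosome. RPL41A had -0.53, 0.57, -0.26 and 1.40, against -0.29, 0.14, -0.15 and 0.23 for RPL41B. Both copies were negative on arrays 1 and 3 and positive on arrays 2 and 4, and their difference of 0.31 ± 0.65 was positive on 2 of 4 arrays. The mean of RPL41A, 0.29 ± 0.88, was -0.08 without array 4. Once a trend of coding span, introns included, was removed on each array, the mean of RPL41A was -0.04 and that of RPL22B -0.03. RPL8A (YHL033C) had -0.07, 0.47, 0.11 and 0.12, against 0.29, 0.30, 0.34 and 0.91 for RPL8B (YLL045C), a difference of -0.30 ± 0.40. RPL43A exceeded RPL43B by 0.22 ± 0.20 on average, although the difference was -0.01 on array 2. RPL26A minus RPL26B was -0.21 ± 0.30, with the A copy higher on array 1 alone.

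The pairs with the smallest mean differences were RPL15 (0.01), RPL27 (0.01) and RPL34 (-0.02). For RPL15 the small mean hides differences of 0.37, -0.24, 0.93 and -1.04 on arrays 1 to 4. RPL34A and RPL34B differed by at most 0.16 on any array.

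**Figure D3:**
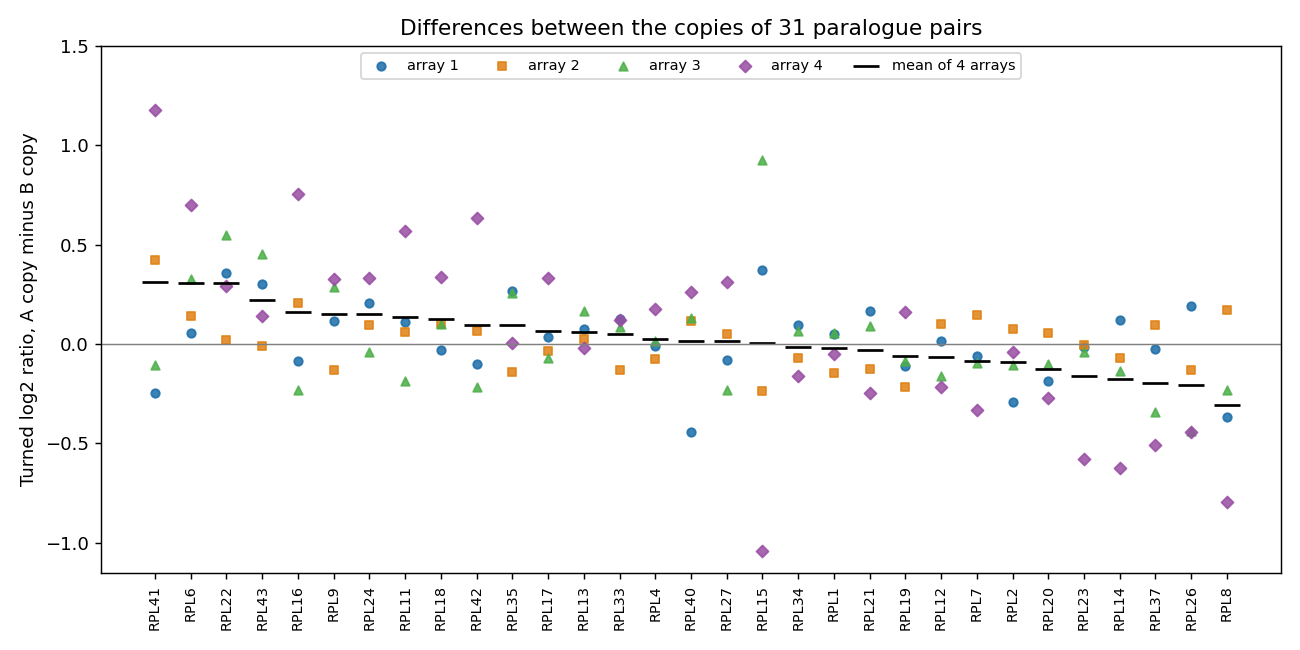
Difference between the A and the B copy, in turned log2 ratio, for 31 pairs ordered by their mean difference. Coloured symbols are single arrays and black bars the mean of 4 arrays. The means lie between -0.30 and 0.31, while single arrays reach from -1.04 to 1.18, with array 4 most often at the edge.

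Copies of a pair resembled each other more than other members did on arrays 1 to 3, but not on array 4. The median size of the difference within pairs was 0.11, 0.10, 0.14 and 0.33 on arrays 1 to 4, against 0.17, 0.12, 0.19 and 0.31 between members that are not copies of each other. The intraclass correlation over the 31 pairs was 0.54, 0.41, 0.45 and 0.04 on arrays 1 to 4. On the mean of the arrays the median difference was 0.10 within pairs and 0.12 between other members, and the intraclass correlation was 0.32. These are descriptions over genes that share arrays, and many copies share sequence as well.

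The order of the members on array 1 tended to be the reverse of that on array 2, while arrays 3 and 4 had no such reversal. Across the 73 members, array 1 and array 2, which carry the dyes the opposite way round, had r = -0.59 after turning (Spearman's rho -0.55), where all 4788 genes tested had 0.54 (rho 0.24). A member that stood high on array 1, such as RPL1A with 0.58, RPL2B with 0.58 or RPL40B with 0.60, was among the lower ones on array 2, with -0.06, 0.04 and 0.06. RPL41A, RPL31A and RPL38 stood the other way, with -0.53, -0.18 and -0.02 on array 1 and 0.57, 0.60 and 0.82 on array 2. Without RPL41A the r was -0.55.

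The arrays of the same dye orientation had positive correlations over the members. These were r = 0.42 (rho 0.30) for arrays 1 and 3 and 0.46 (rho 0.42) for arrays 2 and 4. All genes tested had r = 0.49 (rho 0.43) and 0.52 (rho 0.42) for the same arrays. The other combinations of opposite orientation had -0.33 (arrays 1 and 4), -0.12 (arrays 2 and 3) and 0.17 (arrays 3 and 4). Split into orthogonal parts, the variance among RPL genes was 39.8% dye component and 28.2% mean of the turned arrays, while over all genes tested these parts were 15.0% and 57.8%. The part set by arrays 3 and 4 minus arrays 1 and 2 was 21.1% among RPL genes. Without RPL41A the dye component was 34.2% and the mean 31.4%. The genes share 4 arrays, depth of signal is unknown, base composition was not analysed, and no p is attached to these correlations.

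**Figure D4:**
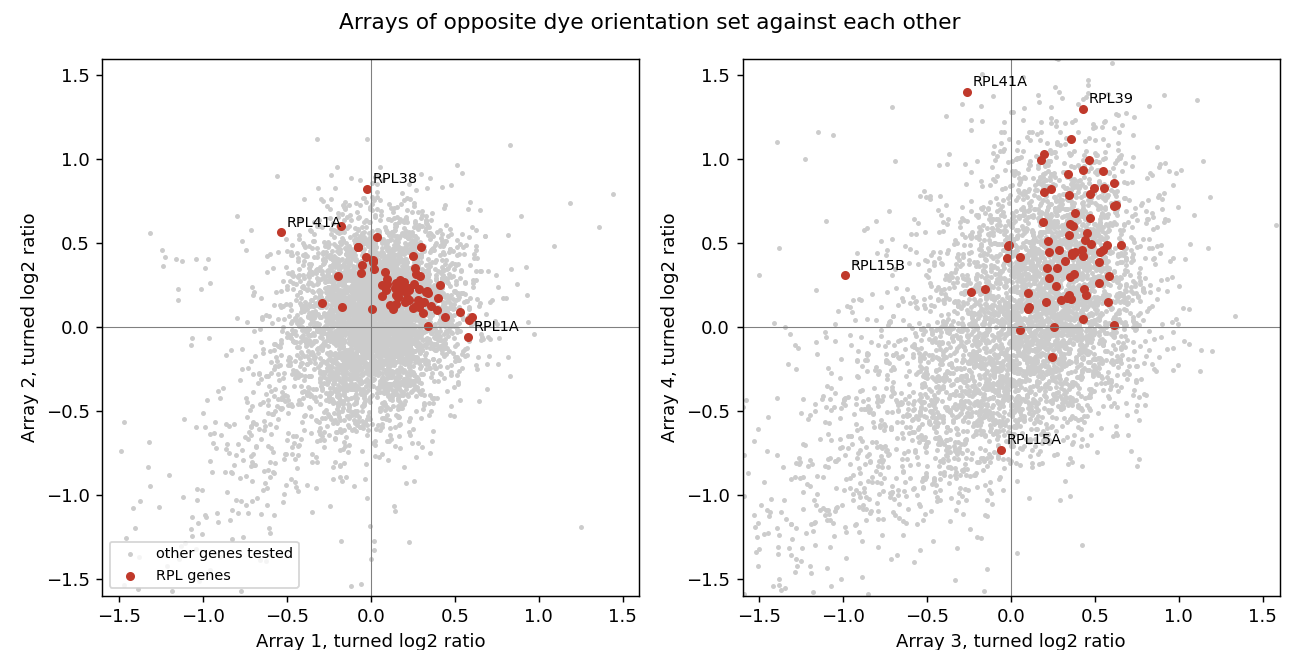
Turned log2 ratios of array 2 against array 1 (left) and of array 4 against array 3 (right), for 73 RPL genes (red) and other genes tested (grey, of which 55 and 145 lie beyond the axis limit of 1.6). On the left the RPL genes run downwards from RPL38 and RPL41A to RPL1A, with r = -0.59. On the right they have r = 0.17, with RPL15A and RPL15B apart from the rest.

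Coding span moved with the ratios over all genes, and the RPL genes have short spans. Counted over the whole coding span, introns included, the members had a median of 821 bases (78 to 1662), against 1218 over all tested genes with a span. Over 4578 such genes Spearman's rho with span was 0.01, 0.18, -0.45 and -0.40 on arrays 1 to 4, so that short genes lay on the side opposite to HSP12 on arrays 3 and 4. On arrays 1 and 2, where rho was at or above 0, the RPL medians were 0.20 and 0.22. With a loess trend of span removed on each array, 66 of 73 members stayed positive and the median was 0.19, against 0.01 over all genes tested. Members with an intron entered this trend as longer than their coding sequence. What would remain after a trend of coding length without introns was not tested. Among the members themselves rho was 0.48, -0.13, 0.22 and -0.17. The span of 28 members is no multiple of 3 and so must hold an intron, and their median was 0.30, against 0.29 for the other 45, some of which may hold one too. Of those 28, 25 (89.3%) were positive on every array, against 29 (64.4%) of the 45, a difference that was not tested.

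Genes of the mitochondrial large subunit (MRPL), with a median span of 645 bases, differed from the RPL genes on arrays 1 and 2 more than on arrays 3 and 4. The RPL genes had medians of 0.20, 0.22, 0.35 and 0.45 on arrays 1 to 4, and the 31 measured MRPL genes -0.01, -0.01, 0.35 and 0.40. On all 4 arrays 74.0% of RPL genes and 6.45% of MRPL genes were positive. The 53 measured genes of the small subunit (RPS) had medians of 0.16, 0.29, 0.34 and 0.62, a median of means of 0.34, and 73.6% positive on all 4 arrays. All 53 RPS means were positive, against 69 of 73 RPL means. The order of members was also mirrored between arrays 1 and 2 among RPS genes (r = -0.58). These differences between families were not tested, since the lists were chosen with results known.

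Reading frames numbered next to an RPL gene on the other strand, without a RefSeq gene of their own, were set beside that gene. Those with a value on all 4 arrays lay on its side on average. Of 9 such frames 7 had a value on all 4 arrays, and all 7 had positive means, from 0.24 to 0.63, with a median of 0.40 against 0.41 for their RPL genes. YPL142C, next to RPL33A, had a value on array 3 alone, and it lay on the HSP12 side (-1.93, against 0.45 for RPL33A). YPL197C, next to RPL7B, had no value. Of all 210 tested frames without a RefSeq gene 69.0% had a positive mean, with a median of 0.18. YJL188C, next to RPL39, had -0.08, 0.58, 0.21 and 1.82 on arrays 1 to 4, against 0.01, 0.39, 0.43 and 1.30 for RPL39. YPR044C, next to RPL43A, had -0.09, 0.56, 0.08 and 1.30, against 0.13, 0.11, 0.22 and 0.35.

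The departures of the frames from their RPL genes differed in sign between arrays 1 and 3, with treated RNA in Cy3, and arrays 2 and 4, with it in Cy5. They lay below the RPL gene in 7 of 7 cases on array 1 and in 6 of 7 on array 3, and above it in 7 of 7 on array 2 and in 5 of 7 on array 4. The median departure was -0.17, 0.18, -0.14 and 0.25 on arrays 1 to 4. Whether the spots of frame and gene overlap in sequence, or hold strand, is not stated.

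**Figure D5:**
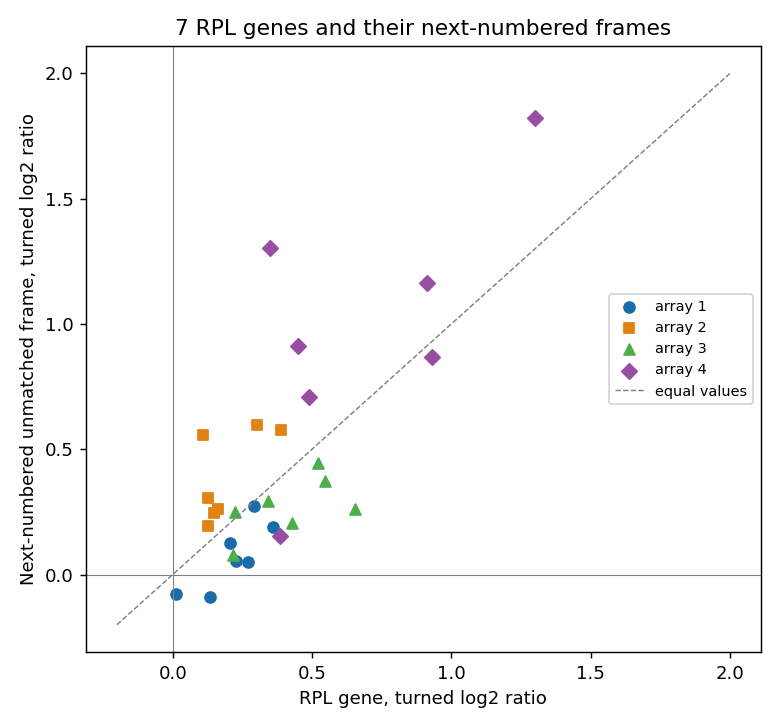
Turned log2 ratio of 7 unmatched reading frames against that of the RPL gene next to them in number and on the other strand, 1 symbol per array. The dashed line marks equal values. All symbols of array 1 lie below the line and all of array 2 above it.

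Other genes of the pathway were described from lists of regulators, chaperones and assembly factors, and 0 members of each list passed the test, beside 4.55% of all genes tested. The 5 P stalk genes, whose proteins recruit translation factors, all had positive means, from 0.25 for RPP0 to 0.31 for RPP1B. Of 12 measured regulators of ribosomal protein gene transcription 4 had a positive mean and 8 a negative one, with a median of -0.03. Their medians were 0.12, 0.17, -0.33 and -0.12 on arrays 1 to 4, where 9, 8, 3 and 5 of the 12 were positive. These genes are long, with a median span of 2479.5 bases, and long genes lay towards the HSP12 side on arrays 3 and 4. Their difference from the RPL genes was not tested. The largest means were those of FHL1 and KOG1 (0.26 and 0.22) and of TOR1 and STB3 (-0.64 and -0.30). FHL1, a transcription factor at these promoters, had 0.03, 0.70, -0.24 and 0.54. TOR1, a kinase that drives their transcription in rich medium, had -0.83, -0.87, -0.56 and -0.28 (-0.64 ± 0.27, adjusted p = 0.150) and lay on the HSP12 side on all 4 arrays.

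Dedicated chaperones, which hold single RPL proteins until they are built in, had 5 of 5 means positive and a median of 0.36. SYO1 (YDL063C), which carries Rpl5 and Rpl11 into the nucleus, had 0.54, 0.34, 0.62 and 0.97, with a mean of 0.62 ± 0.27 (adjusted p = 0.171, limma). This was above each of the RPL genes tested, among them its clients RPL5 (0.16), RPL11A (0.44) and RPL11B (0.30). BCP1, the chaperone of Rpl23, had a mean of 0.61, against 0.28 and 0.44 for RPL23A and RPL23B. The lowest of the 5 chaperones was SQT1, with a mean of 0.08. SQT1 and ACL4 were negative on array 4 (-0.31 and -0.10), and 3 of the 5 chaperones were positive on all 4 arrays. Differences between chaperones and RPL genes were not tested. Of 14 measured genes of late assembly and export 11 had positive means, with a median of 0.18, highest for MRT4 (0.45) and ARX1 (0.44) and lowest for NOG2 (-0.03) and SDO1 (-0.02).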

How the data were processed

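Both channels of 4 two-colour arrays were compared. The deposited values are log ratios, taken as log2 by their size. The sources used here do not give their base, numerator, background correction, normalization or missing-value filter, so scale, centring and direction stay unknown, and scanner signal was not used. Deposited medians were -0.02, 0.05, -0.10 and 0.02 on arrays 1 to 4. After 2 control rows were left out, 5677 of 6207 frames matched a RefSeq R64 gene, 23 of them by an unambiguous synonym. Arrays 1 and 3 were turned.

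Arrays were averaged by culture and fitted with limma 3.58.1 (R 4.3.3, lmFit and eBayes) over the 4788 frames with 4 values, for the 2 pairings of arrays into cultures (1 with 2, 3 with 4; 1 with 4, 2 with 3) that hold a dye swap in each culture, as the labels describe. The larger p was Benjamini-Hochberg adjusted over all frames. The first pairing had infinite prior degrees of freedom, so every gene shared 1 variance there (0.119). The limma p-values rest on 2 cultures. SDs and the sign-flip test of gene pairs take 4 arrays, which mix cultures and dyes. The script was tested on simulated data. Alternatives were each pairing, arrays as replicates with and without a dye term, centring, scaling, a loess length trend, 3 values per frame, robust moderation, unturned arrays and leaving out each array.

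Members, lists and tests were chosen with earlier results of these data known. Named were the 8 largest means positive on all 4 arrays, negative means, the 6 largest and 3 smallest pair differences, single-copy genes, the highest and lowest of each role list, the 3 largest SDs and members lacking values. RPL1A, RPL2B, RPL11B, RPL12B, RPL31A, the RPL23 pair and the members with 1 array far from the rest were named after their values were seen. Introns could be read only from spans that are no multiple of 3, since no protein lengths were used.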

Additional observations from a re-analysis of the deposited data

Results flagged for a closer look

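For 7 of the 73 RPL genes (9.59%), 1 array lay far from the other 3, by the ratio of its gap to the gene's whole range (Dixon's test). Chance flags about 1 in 20 groups of independent, normally distributed values. The share flagged over all genes tested was not worked out, so 9.59% cannot be read as a trait of the RPL genes. RPL8B stood at 0.91 on array 4, beside 0.29 to 0.34 on the others. RPL13A and RPL21B stood high on array 3, with 0.44 and 0.52. RPL2A stood high on array 1, with 0.29, beside 0.10 to 0.12. RPL1B was low on array 2, with 0.087, beside 0.48 to 0.53. RPL24B and RPL33B were low on array 1, with -0.20 and -0.026. No explanation of these values was tested.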

How the results depend on the processing

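The count of RPL genes passing the test was 0 in the main setting and in each alternative except one. With arrays 1 and 4 as one culture and 2 and 3 as the other, 37 passed, and the cause was not tested. Over all genes 218 passed, against 1415 with that pairing, 120 with the length trend removed, 76 to 195 with 1 array left out, 6 without turning and 185 to 241 under the others. The number of members on the side opposite to HSP12 was 69, and 69 to 72 with 1 array left out, 69 after centring, scaling or admitting genes with 3 values, and 66 with the length trend removed. The median of 0.30 ran from 0.27 to 0.34 with 1 array left out and from 0.19 to 0.30 under the other settings with turned arrays. Without turning, which replaces the treatment ratio by the dye component, it was 0.045 and 46 members were positive.

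The number of pairs with 1 sign on every array was 3, and 5 to 12 with 1 array left out, where fewer signs must match. It was 8 without turning. Of the named genes, these means changed sign with 1 array left out: RPL15A (-0.24 to 0.11, positive without array 4), RPL15B (-0.25 to 0.19, positive without array 3), RPL41A (-0.077 to 0.57, negative without array 4), RPL41B (-0.0996 to 0.072) and RPL43B (-0.098 to 0.051), both positive without array 1 or array 3. With the length trend removed RPL22B had -0.026 and RPL41A -0.035. Without turning, the signs changed for RPL1B (-0.11), RPL2A (-0.041), RPL4B (-0.15), RPL6B (-0.028), RPL9A (-0.0082), RPL12A (-0.062), RPL22A (-0.099), RPL27B (-0.099), RPL34A (-0.0098), RPL40B (-0.17), RPL15B (0.42), RPL41B (0.20) and RPL43B (0.18). Under the other settings all 39 named genes kept their side. With the pairing of arrays 1 and 4 alone 18 of them passed the test, beside 29.6% of all genes tested on either side and 15.0% on the opposite one. Some of the 39 were named for their large means, so 18 of 39 cannot be read as a share of the members. No paired analysis was possible because the arrays form 1 group, in which treated and untreated RNA are already compared on each array. Signal over background is unknown, and 4 arrays of 2 cultures limit the precision.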
